A study of Homo sapiens with 9 samples.

Results

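The genes described here are the tetraspanins, a family of small membrane proteins, in 3 related human breast epithelial cell lines. They were chosen by symbol alone: every gene listed as TSPAN followed by a number, together with CD9, CD37, CD53, CD63, CD81, CD82, CD151, UPK1A and UPK1B. This rule found 31 genes among the 62666 of the gene table, and family members with other symbols, such as PRPH2 and ROM1, fell outside it. Polyadenylated RNA was sequenced from MCF10A, a non-tumorigenic mammary epithelial line, from MCF10AT1, a premalignant derivative that carries an activated HRAS gene, and from MCF10Ca1a, a line of this lineage that forms tumours. Each line had 3 libraries, 9 in all, and the labels name no treatment and no time point. The medium was the same apart from horse serum, at 5% for MCF10A and MCF10Ca1a and 2.5% for MCF10AT1, so in the comparisons with MCF10AT1 the line and the serum cannot be told apart. Nothing in the labels says that the libraries of a line came from separate cultures, so the p-values measure the spread between these libraries, which may be technical. The comparisons ask how expression differs along a series of lines used as a model of breast cancer progression.

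Tetraspanins cross the membrane several times and bind each other and other membrane proteins, among them integrins, proteases and immunoglobulin-like receptors. Through these contacts they gather partners into membrane patches often called the tetraspanin web, and they are best known for roles in adhesion, cell fusion, protease trafficking and the budding of extracellular vesicles. CD9, CD81, CD151, CD63 and CD82 are the widely expressed members of that web. A subgroup called TspanC8 escorts the protease ADAM10 out of the endoplasmic reticulum and steers it to different substrates. Other members belong to specialised cells, such as CD37 and CD53 of leukocytes and the uroplakins UPK1A and UPK1B of the bladder lining.

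Library totals ran from 32.9 to 69.5 M counts, with the 3 MCF10Ca1a libraries between 32.9 and 35.2 M and the other 6 between 62.9 and 69.5 M. Replicates of a line differed by more than counting noise (chi-square divided by its degrees of freedom, 2.42 to 68.3), and the 2 widest pairs both held MCF10A replicate 1. Of the 10 mammary epithelial markers listed, all 10 passed the filter on low counts, and their summed level was 5170 to 6505 CPM (counts per M library counts) in MCF10A, 6936 to 7604 CPM in MCF10AT1 and 6450 to 6805 CPM in MCF10Ca1a. Single markers differed far more than this sum. The basal keratins KRT14 (316 ± 28.9, 65.7 ± 2.55 and 6.26 ± 0.453 CPM; SD, n = 3) and KRT5 (2548 ± 279, 3268 ± 198 and 686 ± 20.2 CPM) were lowest in MCF10Ca1a. Other basal markers of the list did not follow them. KRT17 (means 895, 1095 and 2268 CPM) and TP63 (means 71.1, 49.0 and 78.3 CPM) had their highest mean in MCF10Ca1a. Against MCF10A their log2 changes there were 1.34 (SE 0.0666, edgeR adjusted p 2.22e-10) and 0.14 (SE 0.0587, edgeR adjusted p 0.0403). The luminal keratins KRT8 (184 ± 15.6, 848 ± 58.4 and 661 ± 22.8 CPM) and KRT19 (0.0556 ± 0.0326, 0.326 ± 0.101 and 7.28 ± 0.370 CPM) were lowest in MCF10A, and CDH1, the gene of E-cadherin, read 145 ± 25.2, 145 ± 2.77 and 749 ± 19.7 CPM. Their part in the tetraspanin differences was not tested.

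Of the 31 tetraspanin genes, 24 passed the filter on low counts and entered the test, among 17910 genes. The other 7 were at or close to 0. TSPAN32 and TSPAN16 had 0 counts in all 9 libraries, where the limit that a count of 0 allows, 3 counts, is worth 0.0430 to 0.0892 CPM. The highest count in any library was 1 for CD37, 3 for UPK1A and TSPAN11, 4 for CD53 and 6 for TSPAN8. TSPAN8, a tetraspanin of digestive tract carcinomas, had 0 counts in each MCF10A library, 6, 5 and 4 in MCF10AT1 and 5, 1 and 1 in MCF10Ca1a, which is too few for a test here.

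In MCF10AT1 against MCF10A, 16 of the 24 tested members (66.7%) passed edgeR's quasi-likelihood test at an adjusted p of 0.05, 6 higher and 10 lower, beside 61.6% of all genes tested. In MCF10Ca1a against MCF10AT1, 19 members (79.2%) were called, 8 higher and 11 lower, beside 78.4% of all genes. In MCF10Ca1a against MCF10A, 22 members (91.7%) were called, 9 higher and 13 lower, beside 80.9% of all genes. The first 2 shares lie within a few points of the background, and most genes of these lines passed the same test. The directional background was 29.8% higher and 31.8% lower for the first comparison, 38.0% and 40.3% for the second, and 39.0% and 41.9% for the third. On TPM, a level per transcript length scaled to the same sum in every library, with limma on log2(TPM + 1), 4 members were higher and 10 lower in the first comparison, 10 and 8 in the second, and 8 and 10 in the third, so the balance of the second comparison depends on the scale. All genes moved with it: on this scale 19.2% were higher and 34.0% lower in the first comparison, 45.8% and 28.5% in the second, and 42.2% and 34.5% in the third. The same scale moved the median of all genes in that comparison to 0.13, against -0.04 in the count fit.

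Changes of at least 2-fold were made by 4 members (16.7%) in MCF10AT1 against MCF10A, where 18.0% of all genes changed that much. Against MCF10AT1, 13 members (54.2%) changed at least 2-fold in MCF10Ca1a, beside 37.7% of all genes, and against MCF10A it was 14 members (58.3%) beside 42.9%. The median absolute log2 change of the members was 0.55, 1.09 and 1.26 in the 3 comparisons in that order, beside 0.38, 0.76 and 0.84 for all genes tested. The median signed changes were -0.21, -0.05 and -0.23, and they stay at these values with TSPAN18, which has 0 counts in MCF10Ca1a, set to its lower bound. The 24 members were chosen by name and the counts describe them; no test of the family against other genes was made. They include TSPAN12 and UPK1B, which reached the level the filter asks for, 0.156 CPM in 3 libraries of a line, in MCF10Ca1a alone, and 4 members that reached it in 2 lines (TSPAN2, TSPAN7, TSPAN18 and TSPAN19), so a difference from the remaining line was partly selected.

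The promoters of 3 genes are printed because these genes made large changes in different directions and because nearly all of each gene's counts came from transcripts that start beside the window. TSPAN5 was highest in MCF10AT1 and lowest in MCF10Ca1a, TSPAN2 was higher at both steps, and TSPAN15 was higher in MCF10Ca1a alone among the 3 lines. Each window is the 250 bases before the RefSeq start (GRCh38.p14), on the gene's strand, 5′ to 3′, at chr4:98658612-98658861 (minus strand) for TSPAN5, chr1:115089504-115089753 (minus strand) for TSPAN2 and chr10:69451215-69451464 (plus strand) for TSPAN15. Capitals mark GGGCGG, the core of a GC box, on either strand, with overlapping matches joined.
TSPAN5: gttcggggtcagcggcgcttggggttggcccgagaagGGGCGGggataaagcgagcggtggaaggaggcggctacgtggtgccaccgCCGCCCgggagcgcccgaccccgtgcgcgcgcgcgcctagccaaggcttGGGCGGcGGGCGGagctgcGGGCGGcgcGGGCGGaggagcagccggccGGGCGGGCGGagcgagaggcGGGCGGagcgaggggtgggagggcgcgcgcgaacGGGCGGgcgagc
TSPAN2: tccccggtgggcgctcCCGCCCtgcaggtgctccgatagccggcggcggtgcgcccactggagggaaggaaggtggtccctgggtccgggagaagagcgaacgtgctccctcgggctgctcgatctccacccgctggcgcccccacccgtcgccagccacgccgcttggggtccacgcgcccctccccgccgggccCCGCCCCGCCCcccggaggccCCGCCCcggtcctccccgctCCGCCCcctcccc
TSPAN15: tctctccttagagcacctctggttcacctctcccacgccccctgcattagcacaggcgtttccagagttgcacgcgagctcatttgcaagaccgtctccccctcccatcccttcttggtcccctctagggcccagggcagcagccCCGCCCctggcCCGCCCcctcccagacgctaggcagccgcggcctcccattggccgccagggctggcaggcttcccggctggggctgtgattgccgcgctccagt
Transcripts starting within 100 bases of the window held 99.0% of the counts of TSPAN5, all (100.0%) of TSPAN2 and 98.7% of TSPAN15. The TSPAN5 window held 10 matches to GGGCGG and 43 CpG dinucleotides, the TSPAN2 window 5 and 30, and the TSPAN15 window 2 and 14. Over all 35116 RefSeq promoter windows of this length the median was 11 CpG, and 42.6% held GGGCGG. RefSeq windows were found for 23 of the 31 tetraspanin genes, of which 12 (52.2%) held GGGCGG. Another 3 motifs were searched on both strands: TGANTCA, the sequence bound by AP-1, was in 2 member windows (8.7%, all windows 6.6%), TATAAA in 1 (4.3%, all 10.7%) and CACCTG, an E-box, in 8 (34.8%, all 17.5%). These shares count 1 window per gene, and not every window lies beside the starts in use. The TGANTCA windows were those of CD63 and TSPAN10, where transcripts starting within 100 bases held 3.0% and 3.6% of counts. For the CACCTG windows this was 0.0% in CD53, TSPAN13 and TSPAN33 and 3.6% in TSPAN10, and TSPAN16 had no counts. It was 93.4% in TSPAN19, 100.0% in TSPAN2 and 93.0% in UPK1B. None of the 3 printed windows held TGANTCA or TATAAA. These matches describe letters in the window and say nothing about binding.

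The 5 members of the core web took 68.3% ± 0.820 (SD, n = 3) of the summed tetraspanin TPM in MCF10A, 72.0% ± 0.0997 in MCF10AT1 and 71.1% ± 0.522 in MCF10Ca1a. In MCF10AT1 against MCF10A, 2 of the 5 were called higher, 2 lower and 1 was not called, where 29.8% of all genes were higher and 31.8% lower. In MCF10Ca1a against MCF10A, 1 was higher and 4 lower, with a median log2 change of -0.18, where 39.0% of all genes were higher and 41.9% lower. Of these lower calls, that of CD151 was kept in all 20 alternatives. Those of CD81, CD63 and CD82 were lost in 15, 3 and 1 of them. TPM divides by transcript length and is used here to compare levels between genes, whereas CPM and the fitted changes compare lines.

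CD9, a partner of the immunoglobulin-like protein IGSF8 and of integrins with roles in motility and membrane fusion, read 86.4, 86.2 and 91.0 CPM in MCF10A, 177, 177 and 169 CPM in MCF10AT1 and 111, 115 and 114 CPM in MCF10Ca1a. The 3 lines did not overlap, with MCF10AT1 highest and MCF10A lowest. Its log2 change was 0.99 (SE 0.0486, edgeR adjusted p 8.26e-10) in MCF10AT1 against MCF10A, -0.62 (SE 0.0486, adjusted p 3.73e-08) in MCF10Ca1a against MCF10AT1 and 0.37 (SE 0.0488, adjusted p 8.15e-06) in MCF10Ca1a against MCF10A. On the TPM scale its share of all tetraspanin RNA went from 8.83% ± 0.5 to 17.3% ± 0.139 and 14.8% ± 0.205 (SD, n = 3) along the 3 lines.

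CD151, the member that binds the laminin-binding integrins, fell at both steps. Its libraries read 240, 221 and 196 CPM in MCF10A, 172, 173 and 153 CPM in MCF10AT1 and 90.7, 88.3 and 89.4 CPM in MCF10Ca1a, again with no overlap between lines. The log2 changes were -0.40 (SE 0.0720, edgeR adjusted p 0.000281) and -0.89 (SE 0.0738, adjusted p 6.53e-08), and -1.29 (SE 0.0741, adjusted p 1.06e-09) over both steps. Its share of tetraspanin TPM was 15.5% ± 1.29, 11.3% ± 0.398 and 7.82% ± 0.289 (SD, n = 3). CD151 overlaps POLR2L on the other strand, and the sources used here do not say whether counting used the strand, so reads of the pair may not be separable.

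CD82, known as the metastasis suppressor KAI1, was lowest in MCF10AT1. It read 106, 86.0 and 71.2 CPM in MCF10A, 50, 50.4 and 48.7 CPM in MCF10AT1 and 60.9, 60 and 63.0 CPM in MCF10Ca1a, with a wider spread in MCF10A than in the other lines and no overlap between lines. The log2 change was -0.82 (SE 0.103, edgeR adjusted p 1.12e-05) at the first step and -0.52 (SE 0.104, adjusted p 0.000398) in MCF10Ca1a against MCF10A, the latter not called on log2(TPM + 1) without a filter (limma adjusted p 0.0634). The rise at the second step, 0.30 (SE 0.105, adjusted p 0.0174), was not called on the length-scaled or scaled counts (0.20 and 0.21) or without MCF10AT1 replicate 3 (0.27) or MCF10Ca1a replicate 3 (0.28).

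CD63 and CD81 differed least among the core members. CD63, a protein of late endosomes and a common marker of extracellular vesicles, was the most abundant tetraspanin per length in every line, at 459 ± 15.9, 459 ± 20.8 and 455 ± 11.3 TPM (SD, n = 3) in MCF10A, MCF10AT1 and MCF10Ca1a. In CPM it read 260, 275 and 277, then 300, 305 and 284, then 233, 235 and 248. On counts its log2 change was 0.13 (SE 0.0534, edgeR adjusted p 0.0484) at the first step, a call lost in 15 of 20 alternatives (at 0.10 to 0.14 without any 1 of MCF10A replicates 1 and 2, MCF10AT1 replicates 1 and 2 and the 3 MCF10Ca1a libraries), and -0.31 (SE 0.0537, adjusted p 0.000112) at the second. Neither step was called on the TPM scale, where the changes were -0.00068 and -0.0089, so any direction for CD63 holds for counts and not for TPM. CD81, a receptor for hepatitis C virus, read 172, 150 and 136 CPM in MCF10A, 146, 149 and 138 CPM in MCF10AT1 and 131, 136 and 140 CPM in MCF10Ca1a, and the lines overlapped. CD81 was called in MCF10Ca1a against MCF10A alone, at -0.17 (SE 0.0740, edgeR adjusted p 0.0486), and that call was lost in 15 of 20 alternatives. It was -0.09 and -0.20 without MCF10A replicates 1 and 2, and -0.15, -0.17 and -0.19 without MCF10Ca1a replicates 1, 2 and 3. The first step of CD81, -0.08 (edgeR adjusted p 0.385), was called without MCF10A replicate 3 (-0.15), and the second, -0.09 (adjusted p 0.265), without MCF10A replicate 1 (-0.11).

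**Figure D1:**
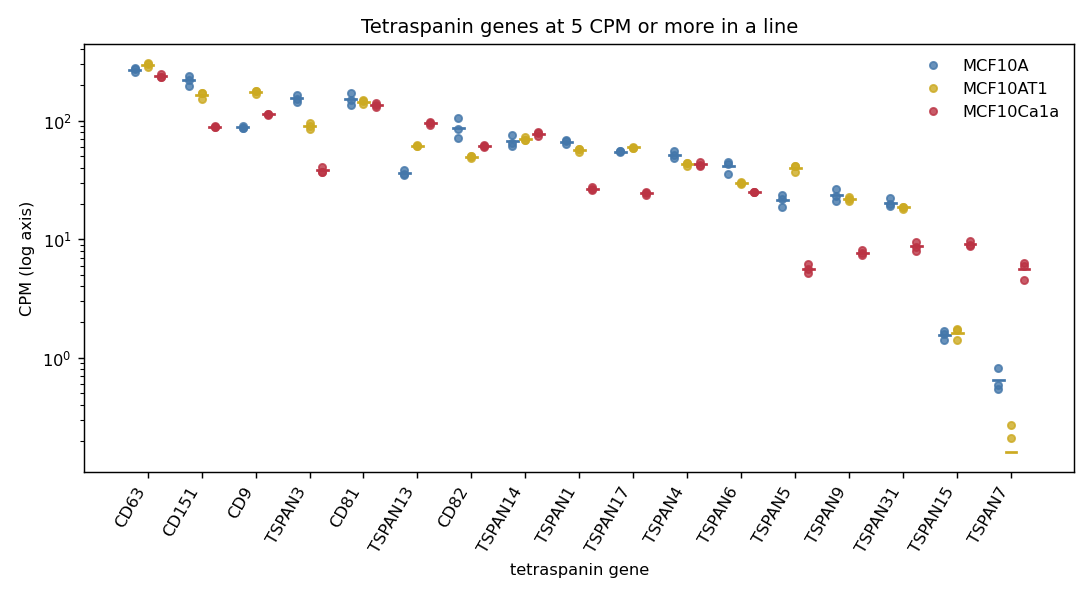
CPM (log axis) of 17 of the 18 tetraspanin genes with a mean of 5 CPM or more in a line, TSPAN18 with its 0 counts in MCF10Ca1a being left to the linear plot, with 1 point per library and a bar at the mean of the 3 libraries of each line; MCF10AT1 replicate 3 had 0 counts of TSPAN7 and has no point. The MCF10Ca1a points of CD63, CD151, TSPAN3, TSPAN1, TSPAN17, TSPAN6, TSPAN5, TSPAN9 and TSPAN31 lie under those of the other lines, and those of TSPAN13, TSPAN15 and TSPAN7 lie above them.

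The 6 TspanC8 members moved in different directions. In MCF10AT1 against MCF10A, 2 were called higher, 1 lower and 3 were not called (all genes 29.8% higher and 31.8% lower). In MCF10Ca1a against MCF10A, 3 were higher (TSPAN15, TSPAN33 and TSPAN14), 2 lower (TSPAN5 and TSPAN17) and TSPAN10 was not called (all genes 39.0% higher and 41.9% lower). ADAM10, the protease they escort, read 119 ± 14.9, 136 ± 5.44 and 134 ± 2.51 CPM (SD, n = 3) along the lines. Its log2 changes were 0.20 (SE 0.0748, edgeR adjusted p 0.0359) and -0.02 (SE 0.0753, adjusted p 0.796) at the 2 steps. Over both it was 0.17 (SE 0.0754, edgeR adjusted p 0.0477).

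TSPAN5, a TspanC8 member tied to Notch cleavage by ADAM10, read 23.5, 22.0 and 18.7 CPM in MCF10A, 41.7, 41.6 and 36.9 CPM in MCF10AT1 and 5.62, 5.20 and 6.15 CPM in MCF10Ca1a. TSPAN5 rose at the first step and fell at the second to a level under that of MCF10A, with no overlap between lines. The changes were 0.91 (SE 0.0796, edgeR adjusted p 3.24e-07), -2.82 (SE 0.0970, adjusted p 7.53e-12, 7.08-fold lower) and, over both, -1.92 (SE 0.0988, adjusted p 3.34e-10). TSPAN17, another member of the Notch-linked branch, read 55.1, 54.6 and 55.3 CPM, then 59.1, 60.4 and 59.3, then 25.1, 23.7 and 24.6. Its libraries were close to each other within each line, and the fall at the second step was -1.28 (SE 0.0468, edgeR adjusted p 1.36e-11). Its first-step change of 0.12 (SE 0.0436, adjusted p 0.0346) was lost in 12 of 20 alternatives, among them without MCF10A replicate 2, MCF10AT1 replicate 1 or 2 or MCF10Ca1a replicate 1 (0.11 to 0.12), and was -0.01 on the TPM scale.

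TSPAN15, which directs ADAM10 to N-cadherin, changed in the other direction. It read 1.68, 1.58 and 1.42 CPM in MCF10A, 1.42, 1.75 and 1.71 CPM in MCF10AT1 and 8.94, 8.71 and 9.76 CPM in MCF10Ca1a. The first 2 lines overlapped and every MCF10Ca1a library lay above them, by 2.49 (SE 0.118, edgeR adjusted p 1.90e-10, 5.61-fold) against MCF10AT1 and 2.55 (SE 0.119, adjusted p 1.08e-10) against MCF10A. TSPAN33, studied in blood cells, read 2.53, 2.24 and 2.11 CPM, then 1.29, 1.55 and 1.58, then 4.50, 4.07 and 4.32. It was lowest in MCF10AT1 and highest in MCF10Ca1a, with changes of -0.64 (SE 0.128, edgeR adjusted p 0.000713) and 1.54 (SE 0.129, adjusted p 7.44e-08).

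TSPAN14 was the most abundant TspanC8 member in MCF10Ca1a per length, at 30.4 ± 0.961 TPM (SD, n = 3), beside 26.5 ± 4.51 in MCF10A and 24.5 ± 1.74 in MCF10AT1. In CPM it read 75.3, 64.9 and 60.8, then 73.1, 69.1 and 69.0, then 80.0, 74.3 and 78.7, and its libraries overlapped between MCF10A and both other lines. The change of 0.21 (SE 0.0710, edgeR adjusted p 0.0134) in MCF10Ca1a against MCF10A was lost in 9 of 20 alternatives, among them without MCF10A replicates 2 and 3 (0.17 and 0.13) and MCF10Ca1a replicate 1 (0.19). The first step was called without MCF10A replicate 1 (0.17), and the second was called in 8 of 20 alternatives, that one (0.13) among them. TSPAN10, known from pigment cells, stayed at or under 0.573 CPM in every library and passed the test in no comparison (log2 changes -0.71, 0.27 and -0.45, edgeR adjusted p 0.0614, 0.504 and 0.233), although without MCF10AT1 replicate 3 the first was called (-0.98). In MCF10A and MCF10AT1, TSPAN17 had the highest mean per length, at 31.4 ± 2.94 and 31.0 ± 0.666 TPM, and in MCF10Ca1a it was at 15.7 ± 0.46. In MCF10A it lay above TSPAN14 within each library (34.7, 30.3 and 29.2 TPM beside 31.6, 24.9 and 23.1 TPM), although their ranges overlapped.

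The widest differences were made by members near 0 in at least 1 line. TSPAN18, a tetraspanin studied in endothelial cells, had 1219, 1027 and 1029 counts in MCF10A, 40, 27 and 26 in MCF10AT1 and 0 in each of the 3 MCF10Ca1a libraries. Its log2 change was -5.11 (SE 0.159, edgeR adjusted p 1.37e-10, 34.5-fold lower) at the first step. Against the highest level that 3 counts are worth in a MCF10Ca1a library, it was at least 5.33-fold lower in MCF10Ca1a than in MCF10AT1 and at least 185-fold lower than in MCF10A. The first of these bounds is small because MCF10AT1 itself held 0.475 ± 0.108 CPM (SD, n = 3), and the second step was not called on log2(TPM + 1), where the pseudocount hides changes of so low a gene. MCF10Ca1a alone did not reach the filter level for TSPAN18, so differences from it were partly selected. TSPAN18 overlaps TP53I11 on the other strand.

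TSPAN12, which joins the receptor FZD4 and its ligand norrin in retinal vessels, was the reverse case. Its MCF10A libraries held 1, 2 and 2 counts, those of MCF10AT1 1 each and those of MCF10Ca1a 55, 50 and 56. The ratio of summed counts scaled to depth was 99.6 (95% counting interval 33.5 to 488) for MCF10Ca1a over MCF10AT1 and 60.8 (25.5 to 190) over MCF10A. TSPAN12 passed the filter on low counts through MCF10Ca1a alone, the line where it is high, so these ratios are given as a description with no test. Even so, the level in MCF10Ca1a was 1.53 ± 0.0467 CPM (SD, n = 3). FZD4 rose at both steps, by 1.14 (SE 0.116, edgeR adjusted p 1.40e-06) and 0.45 (SE 0.112, adjusted p 0.00217), and NDP, the norrin gene, had 0 counts in every library.

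TSPAN2, best known from oligodendrocytes, rose at both steps. The MCF10A libraries held 12, 6 and 4 counts, the MCF10AT1 libraries 57, 61 and 45 and the MCF10Ca1a libraries 86, 62 and 74, the last in libraries of lower depth. In CPM these are 0.187, 0.0927 and 0.0573, then 0.855, 0.921 and 0.725, then 2.40, 1.84 and 2.09, with no overlap. The log2 changes were 2.88 (SE 0.310, edgeR adjusted p 2.40e-06) and 1.34 (SE 0.225, adjusted p 9.09e-05), and 4.22 (SE 0.296, adjusted p 9.32e-09, 18.7-fold) over both. TSPAN2 reached the filter level in MCF10AT1 and MCF10Ca1a and not in MCF10A, so its differences from MCF10A were partly selected.

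TSPAN7, an X-linked gene mutated in intellectual disability, read 0.813, 0.542 and 0.594 CPM in MCF10A, 0.210, 0.268 and 0 CPM in MCF10AT1 and 6.29, 4.57 and 6.0 CPM in MCF10Ca1a. The MCF10AT1 values come from 14, 18 and 0 estimated counts, so the level of that line is uncertain. MCF10AT1 alone did not reach the filter level for TSPAN7, so differences from it were partly selected. The changes were -1.97 (SE 0.477, edgeR adjusted p 0.00275), 5.09 (SE 0.409, adjusted p 4.87e-08) and, in MCF10Ca1a against MCF10A, 3.12 (SE 0.337, adjusted p 1.01e-06, 8.70-fold). For genes this low the pseudocount of log2(TPM + 1) shrinks a change: on that scale MCF10Ca1a against MCF10A gave 1.42 for TSPAN2, 2.05 for TSPAN7 and 1.26 for TSPAN12.

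**Figure D2:**
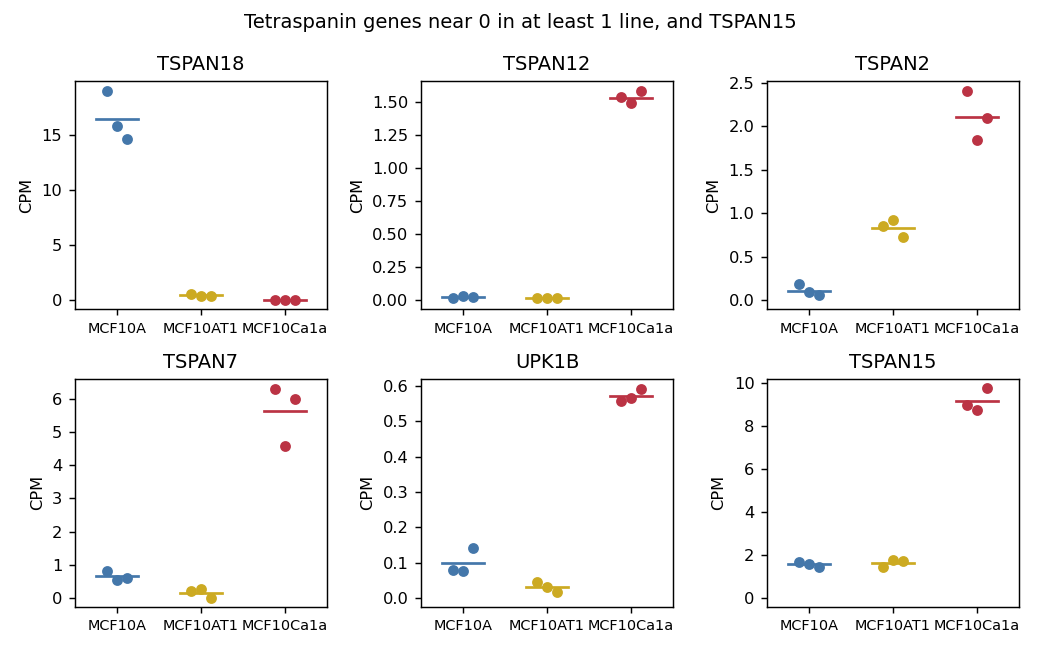
CPM of 6 tetraspanin genes on linear axes, with 1 point per library and a bar at the mean of the 3 libraries of a line. TSPAN18 is at 14.7 to 19.0 CPM in MCF10A and at 0 in MCF10Ca1a, whereas TSPAN12, TSPAN2, TSPAN7, UPK1B and TSPAN15 are highest in MCF10Ca1a.

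Among the uroplakins, tetraspanins that form plaques on the bladder surface with UPK2 and UPK3A, UPK1A was at 3 counts or fewer and UPK1B was tested. Counts of UPK1B were 5, 5 and 10 for MCF10A, 3, 2 and 1 for MCF10AT1 and 20, 19 and 21 for MCF10Ca1a. UPK1B, too, passed the filter through MCF10Ca1a alone, so its height there is a description with no test: it was higher on the log2 scale by 2.48 (SE 0.344) against MCF10A, with a count ratio of 18.6 (95% counting interval 8.05 to 52.6) over MCF10AT1. Its fall at the first step, a count ratio of 3.27 (1.27 to 9.96) for MCF10A over MCF10AT1 (adjusted p 0.0146), was lost in 6 of 19 alternatives, among them without MCF10A replicate 3 and without MCF10AT1 replicate 3 (log2 changes -1.28 and -1.36, beside -1.64 with all libraries). UPK2, which passed the filter in the same way, read 0.0459 ± 0.0256 CPM (SD, n = 3) in MCF10AT1 and 0.379 ± 0.122 CPM in MCF10Ca1a (log2 change 2.98, SE 0.567), and UPK3A had 0 counts throughout. These levels are all under 1 CPM.

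Of the 12 tested TSPAN genes outside the TspanC8 group, 2 were called higher and 6 lower in MCF10AT1 against MCF10A (all genes 29.8% and 31.8%). In MCF10Ca1a against MCF10A, 4 were higher and 7 lower (all genes 39.0% and 41.9%). The higher ones include TSPAN12, which passed the filter through MCF10Ca1a alone. The lower ones include TSPAN4, whose call was lost in 3 of 20 alternatives. TSPAN3, a widely expressed member, fell at both steps. It read 166, 154 and 143 CPM in MCF10A, 90.5, 96.7 and 84.5 CPM in MCF10AT1 and 36.7, 40.7 and 37.3 CPM in MCF10Ca1a. No line overlapped another, and the changes were -0.77 (SE 0.0675, edgeR adjusted p 3.13e-07), -1.24 (SE 0.0711, adjusted p 1.30e-09) and -2.01 (SE 0.0719, adjusted p 7.27e-12, 4.04-fold lower) over both. TSPAN13, also called NET-6, rose at both steps, from 34.9, 35.6 and 38.5 CPM to 60.9, 61.7 and 62.2 and then to 96.2, 98.6 and 92.9. Its changes were 0.76 (SE 0.0512, edgeR adjusted p 2.02e-08) and 0.64 (SE 0.0507, adjusted p 4.17e-08), and again no line overlapped another.

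TSPAN1, a tetraspanin of epithelial cancers, fell at both steps, from 66.8 ± 2.68 to 56.6 ± 1.64 and 26.7 ± 0.858 CPM (SD, n = 3), by -0.24 (SE 0.0492, edgeR adjusted p 0.000816) and -1.08 (SE 0.0526, adjusted p 2.43e-10). TSPAN6 went from 41.3 ± 5.23 to 29.9 ± 0.435 and 25.2 ± 0.139 CPM, a fall of -0.46 (SE 0.0742, edgeR adjusted p 0.000101) at the first step. Its second-step fall of -0.25 (edgeR adjusted p 0.01) had the other sign on the TPM scale, at 0.13, and was not called on the length-scaled or scaled counts (-0.15 and -0.14). TSPAN9, described in platelets, and TSPAN31, a neighbour of CDK4 in the amplified region of some sarcomas, fell at the second step. At the first they were not called (-0.11 and -0.13), except without MCF10A replicate 3 for TSPAN9 (-0.19) and without MCF10A replicate 1 for TSPAN31 (-0.17). TSPAN9 read 23.7 ± 2.69, 21.9 ± 0.911 and 7.69 ± 0.409 CPM, a second-step change of -1.51 (SE 0.0865, edgeR adjusted p 1.32e-09). TSPAN31 read 20.3 ± 1.67, 18.6 ± 0.417 and 8.72 ± 0.807 CPM, a second-step change of -1.09 (SE 0.0791, edgeR adjusted p 1.58e-08), and it overlaps CDK4 and AGAP2 on the other strand. TSPAN4, which marks the migrasomes left behind by moving cells, fell at the first step by -0.26 (SE 0.0584, edgeR adjusted p 0.00156), from 51.9 ± 3.54 to 43.3 ± 1.42 CPM, and was at 43.1 ± 2.03 CPM in MCF10Ca1a. TSPAN19 stayed at or under 0.447 CPM and passed the test in no comparison (edgeR adjusted p 0.735, 0.409 and 0.627).

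**Figure D3:**
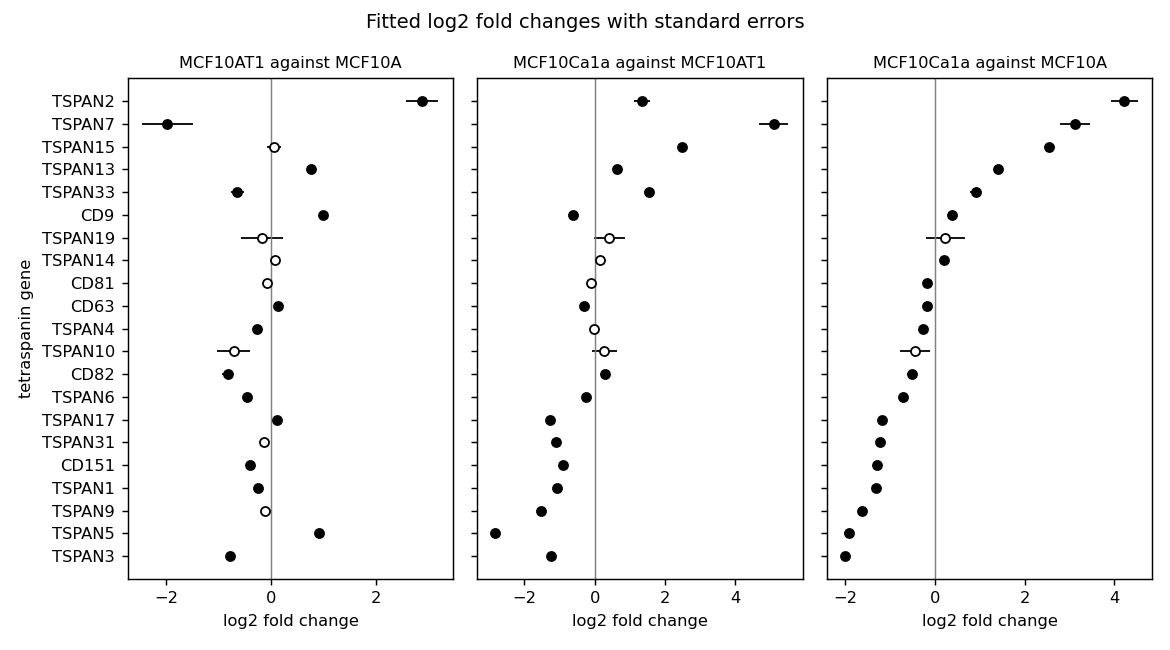
Fitted log2 fold changes (x axis) of 21 tetraspanin genes in the 3 comparisons, ordered by the change in MCF10Ca1a against MCF10A, with filled points for an edgeR adjusted p under 0.05, open points otherwise, and bars of 1 standard error. TSPAN18, TSPAN12 and UPK1B, at 3 counts or fewer in every library of a line, are left out; in the third panel TSPAN2 stands at 4.22 at one end and TSPAN3 at -2.01 at the other.

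Read over both steps, 5 members were lower at each step (TSPAN6, TSPAN1, TSPAN3, TSPAN18 and CD151), which is 20.8% of the 24 tested beside 13.0% of all genes tested. TSPAN13 and TSPAN2 were higher at each step (8.33%, all genes 10.8%). The 4 members that were higher and then lower were CD9, TSPAN17, CD63 and TSPAN5 (16.7%, all genes 13.8%), and the 4 that were lower and then higher were CD82, UPK1B, TSPAN7 and TSPAN33 (16.7%, all genes 12.7%). Several of these places rest on fragile calls. The first-step calls of CD63 and TSPAN17 were lost in 15 and 12 of 20 alternatives, and that of UPK1B in 6 of 19. The second-step calls of TSPAN6, CD82, CD63 and TSPAN18 were lost in 5, 4, 3 and 2 of 20. TSPAN15 and TSPAN12 rose and TSPAN9 and TSPAN31 fell at the second step after no call at the first. TSPAN4 fell at the first step with no call at the second on counts, although on log2(TPM + 1) the second step was called higher (0.25, limma adjusted p 0.0222), and TSPAN14, CD81, TSPAN10 and TSPAN19 were called at neither. The 2 steps share the MCF10AT1 libraries, so an odd value there moves both steps in opposite directions.

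Summed over all 31 members, tetraspanin RNA was 1602 ± 157 TPM (SD, n = 3) in MCF10A, with libraries at 1770, 1580 and 1457, 1471 ± 68.7 TPM in MCF10AT1, with libraries at 1515, 1507 and 1392, and 1393 ± 8.64 TPM in MCF10Ca1a, with libraries at 1383, 1395 and 1400. The MCF10A libraries spread more widely than the lines differ. MCF10AT1 overlaps both other lines, and MCF10A lies above MCF10Ca1a. In summed CPM, which is not divided by length, the lines held 1378 ± 67.1, 1329 ± 45 and 1016 ± 11.6 (SD, n = 3), with MCF10Ca1a, at 1009 to 1030, below all libraries of the other lines, at 1278 to 1445. The difference between lines in the total thus depends on the scale. In make-up, TSPAN3 went from 11.4% ± 0.424 of the sum to 6.79% ± 0.301 and 3.56% ± 0.181 (SD, n = 3), while TSPAN13 went from 3.37% ± 0.303 to 5.57% ± 0.183 and 11.1% ± 0.335. CD63 held 28.7% ± 1.85, 31.2% ± 0.0401 and 32.7% ± 0.663. These are bulk RNA values, in which fewer cells of a kind and less RNA per cell cannot be told apart.

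**Figure D4:**
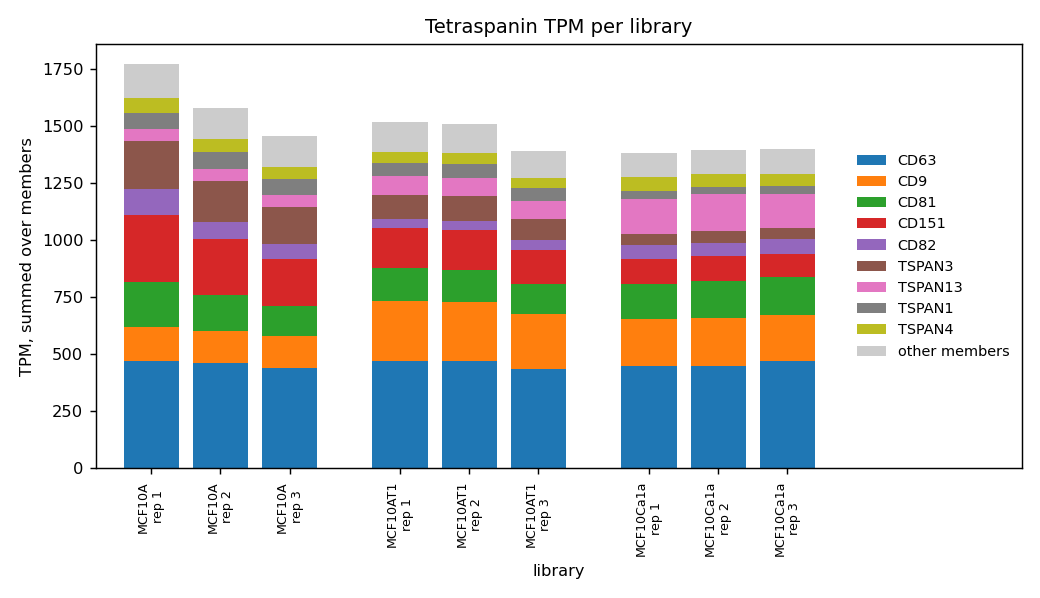
TPM summed over the tetraspanin genes in each of the 9 libraries (bars from 0), stacked by gene for the 9 members named in the legend, with the other members in grey. CD63 is the largest block in every library, TSPAN13 (pink) has a taller block in MCF10Ca1a than in the other lines, and TSPAN3 (brown) and CD151 (red) have shorter ones.

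The members lie on 12 chromosomes in the GENCODE 29 annotation of GRCh38, and chromosome 11 holds 3 close pairs. CD151 (11:832843-839831) and TSPAN4 (11:842808-867116) lie 2976 bases apart on the same strand. TSPAN32 (11:2301997-2318200) and CD81 (11:2376177-2397419) are 58.0 kb apart, and CD82 (11:44564427-44620363) and TSPAN18 (11:44726465-44932421) 106.1 kb apart, in both cases with no protein-coding gene between them. At the first step both members of the first and last pair fell, CD151 by -0.40 and TSPAN4 by -0.26, and CD82 by -0.82 and TSPAN18 by -5.11, and all 4 were called lower in MCF10Ca1a than in MCF10A on counts. On log2(TPM + 1) that call of TSPAN4 was lost (-0.06, limma adjusted p 0.523), and its TPM libraries overlapped between the 2 lines. At the second step CD151 changed by -0.89 and TSPAN4 by -0.01 (edgeR adjusted p 0.905), and CD82 rose by 0.30 where TSPAN18 went to 0 counts.

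Of 42 listed partner genes of tetraspanins, 40 were tested. In MCF10AT1 against MCF10A, 15 were called higher and 15 lower (median log2 change 0.08), in MCF10Ca1a against MCF10AT1 21 higher and 11 lower (median 0.29), and in MCF10Ca1a against MCF10A 21 and 13 (median 0.20). These are 75.0%, 80.0% and 85.0% of the partners, beside the 61.6%, 78.4% and 80.9% of all genes given above. The medians of all genes were 0.00, -0.04 and -0.05. On log2(TPM + 1) the last 2 splits were 29 to 6 and 24 to 8, where the split of all genes also leaned higher, at 8203 to 5104 and 7550 to 6172. On counts at the second step, 38.0% of all genes were higher and 40.3% lower. Of the 12 vesicle partners, 3 were higher and 6 lower at that step, and of the 12 tested shedding and receptor partners 7 and 3. Of the adhesion partners, 10 of 14 were higher and 2 lower at the second step. IGSF8, the immunoglobulin-like partner of CD9 and CD81, rose most there, from 28.0 ± 1.27 to 101 ± 4.65 CPM (log2 change 1.86, SE 0.0689, edgeR adjusted p 1.58e-11). ITGA6, a laminin-binding integrin subunit that pairs with CD151, fell most, from 1263 ± 16.6 to 525 ± 9.74 CPM (-1.27, SE 0.0810, edgeR adjusted p 4.23e-09), and it also fell most in MCF10Ca1a against MCF10A (-0.82, SE 0.0803, edgeR adjusted p 3.66e-07). Other integrin subunits of the list did not follow it. ITGA3 was called in no comparison, at 611 ± 90.7, 608 ± 4.63 and 620 ± 11.2 CPM along the lines. ITGB4 rose at both steps, by 0.49 (SE 0.0899, edgeR adjusted p 0.000329) and 0.93 (SE 0.0904, edgeR adjusted p 3.8e-07). EPCAM, an adhesion protein found in complexes with CD9, rose most at the first step (2.22, SE 0.0579, edgeR adjusted p 1.35e-12) and over both (3.14, SE 0.0597, edgeR adjusted p 2.01e-14), and CD46 fell most at the first (-0.73, SE 0.0704, edgeR adjusted p 7.81e-07).

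Among the shedding and receptor partners, HBEGF, a growth factor that binds CD9 in its membrane form, rose most in MCF10Ca1a, from 29.7 ± 1.07 to 189 ± 3.08 CPM (SD, n = 3) against MCF10AT1 (log2 change 2.67, SE 0.0553, edgeR adjusted p 9.81e-14) and by 3.52 against MCF10A (SE 0.0580, edgeR adjusted p 5.20e-15). AREG, another shed ligand of the EGF receptor, fell most in those comparisons (-2.39, SE 0.0592, edgeR adjusted p 4.06e-13, and -1.34, SE 0.0573, edgeR adjusted p 4.58e-11). At the first step FZD4 rose most, as given above, and the membrane protease MMP14 fell most (-0.64, SE 0.0912, edgeR adjusted p 3.75e-05). In the vesicle list, SDC4, a syndecan that engages the vesicle adaptor syntenin, rose most in MCF10Ca1a against MCF10AT1 (0.89, SE 0.0683, edgeR adjusted p 2.96e-08) and against MCF10A (1.88, SE 0.0702, edgeR adjusted p 1.16e-11). SDC2 rose most at the first step (1.09, SE 0.172, edgeR adjusted p 9.21e-05) and then fell most, to 1 count in all 3 MCF10Ca1a libraries together, a count ratio of 203 (95% counting interval 36.1 to 8023) for MCF10AT1 over MCF10Ca1a and of 95.3 (16.9 to 3784) for MCF10A over MCF10Ca1a. HGS, a subunit of the endosomal sorting machinery, fell most at the first step (-0.31, SE 0.0557, edgeR adjusted p 0.000298). Of the 2 tested uroplakin partners, UPK2 had the larger change in MCF10Ca1a against MCF10A, 3.17 (SE 0.579), beside 1.67 for UPK3B (SE 0.478). Both passed the filter through MCF10Ca1a alone, so no test is given.

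Leukocyte tetraspanins were at or near 0. Of the 10 leukocyte markers listed, 6 passed the filter on low counts and 4 did not, among them CD3E with 0 counts in every library, SPI1 with at most 1 and PTPRC with at most 2. The summed level of the list was 47.6 to 59.2 CPM in MCF10A, 262 to 303 CPM in MCF10AT1 and 109 to 116 CPM in MCF10Ca1a, most of it in MCF10AT1 from LCP1, an actin bundling protein, at 258 ± 20.8 CPM (SD, n = 3). LCP1 read 7.5 ± 0.834 CPM in MCF10A and 39.0 ± 0.799 CPM in MCF10Ca1a. CD68 (14.8 ± 2.27, 4.04 ± 0.388 and 41.9 ± 2.10 CPM) and ITGB2 (9.65 ± 1.21, 17.5 ± 0.738 and 29 ± 0.445 CPM) were highest in MCF10Ca1a. CD14 (9.16 ± 0.486, 4.4 ± 0.135 and 0.208 ± 0.115 CPM), LAPTM5 (6.93 ± 0.747, 1.02 ± 0.162 and 0.336 ± 0.197 CPM) and CORO1A (5.91 ± 0.624, 2.20 ± 0.0941 and 0.991 ± 0.0700 CPM) were highest in MCF10A. Beside TSPAN18, studied in endothelium and highest in MCF10A, the 5 endothelial markers summed to 3.90 to 4.18 CPM in that line, 3.65 to 4.83 CPM in MCF10AT1 and 42.2 to 49.5 CPM in MCF10Ca1a. Nearly all of the last was PECAM1, at 45.4 ± 3.71 CPM. KDR and TEK, at lower levels, had their highest mean in MCF10A as TSPAN18 did: KDR read 0.564 ± 0.0961, 0.410 ± 0.0667 and 0.0094 ± 0.0163 CPM along the lines and TEK 0.334 ± 0.0757, 0.171 ± 0.0915 and 0.0765 ± 0.0176 CPM (SD, n = 3). CDH5 and VWF stayed at 3 counts or fewer in all libraries. The 7 fibroblast markers summed to 13.2 to 14.2, 33.8 to 35.0 and 5.34 to 5.95 CPM along the lines. DCN made up most of this in MCF10AT1, at 30.7 ± 0.544 CPM (SD, n = 3), beside 4.41 ± 0.443 in MCF10A and 0.169 ± 0.122 in MCF10Ca1a. COL1A1 was at 9.16 ± 0.866, 3.31 ± 0.328 and 5.11 ± 0.355 CPM in MCF10A, MCF10AT1 and MCF10Ca1a, and COL1A2 and COL3A1 had at most 2 counts in a library. The part of such genes in the tetraspanin differences was not tested.

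Transcript use, the share of a gene's counts assigned to each of its transcripts, was tested for 14 members with limma on log ratios, each transcript set against all others of the gene. It differed for 1 member (7.14%) in MCF10AT1 against MCF10A beside 13.3% of all genes tested, for 5 (35.7%) in MCF10Ca1a against MCF10AT1 beside 45.9%, and for 6 (42.9%) in MCF10Ca1a against MCF10A beside 53.1%. All 3 shares lie under the background. The call of TSPAN4 in both comparisons with MCF10Ca1a, and that of CD151 in MCF10Ca1a against MCF10A, were made in all 13 alternatives run, edgeR's diffSpliceDGE among them. The other 9 calls, of CD151 at the first step and of TSPAN6, TSPAN9, TSPAN14, TSPAN1 and CD63, were lost in at least 1.

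TSPAN4, whose gene count hardly differed between MCF10AT1 and MCF10Ca1a, differed in its transcripts (limma adjusted p 0.00121). The protein-coding TSPAN4-206 (11:842941-867116) held 12.9% ± 1.13 of the gene's counts in MCF10A, 19.5% ± 1.45 in MCF10AT1 and 5.65% ± 1.80 in MCF10Ca1a (SD, n = 3). TSPAN4-207 (11:842812-866817), also protein-coding, held 3.61% ± 1.77, 5.64% ± 0.744 and 14.8% ± 1.27. Its MCF10Ca1a libraries, at 13.8%, 14.5% and 16.2%, lay above all others, and those of TSPAN4-206, at 4.46%, 7.73% and 4.77%, lay below all others. For CD151, the share of CD151-203 (11:832952-838834) was 32.8%, 29.5% and 29.2% in MCF10A, then 43.0%, 41.4% and 42.2% in MCF10AT1, then 47.9%, 47.5% and 38.9% in MCF10Ca1a. That of CD151-202 (11:832843-838835) was 38.2%, 39.0% and 39.3%, then 29.9%, 32.3% and 32.2%, then 19.5%, 27.3% and 28.2%. Both are protein-coding, MCF10A stood apart from MCF10Ca1a in both, and the limma adjusted p of that comparison was 0.00630.

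At the first step CD151 had a limma adjusted p of 0.0480, with a change of 11.7 percentage points in CD151-203, and that call was lost in 9 of 13 alternatives. TSPAN1-202 (1:46183433-46185308), a processed transcript, went from 0.645% ± 0.601 of TSPAN1 in MCF10AT1 to 11.4% ± 2.20 (SD, n = 3) in MCF10Ca1a (limma adjusted p 0.0467). TSPAN9-206 (12:3077355-3286564) went from 3.47% ± 0.726 of TSPAN9 in MCF10A to 14.7% ± 11.8 in MCF10Ca1a, with 5.47%, 28.0% and 10.5% in the 3 libraries, and TSPAN9-201 (12:3077377-3286558) from 93.7% ± 2.79 to 83.0% ± 9.54 (limma adjusted p 0.0384). The calls of TSPAN1 and TSPAN9 were each made in 4 of 13 alternatives. Transcripts of a gene share most of their sequence, and the uncertainty of assigning reads among them was not used here.

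**Figure D5:**
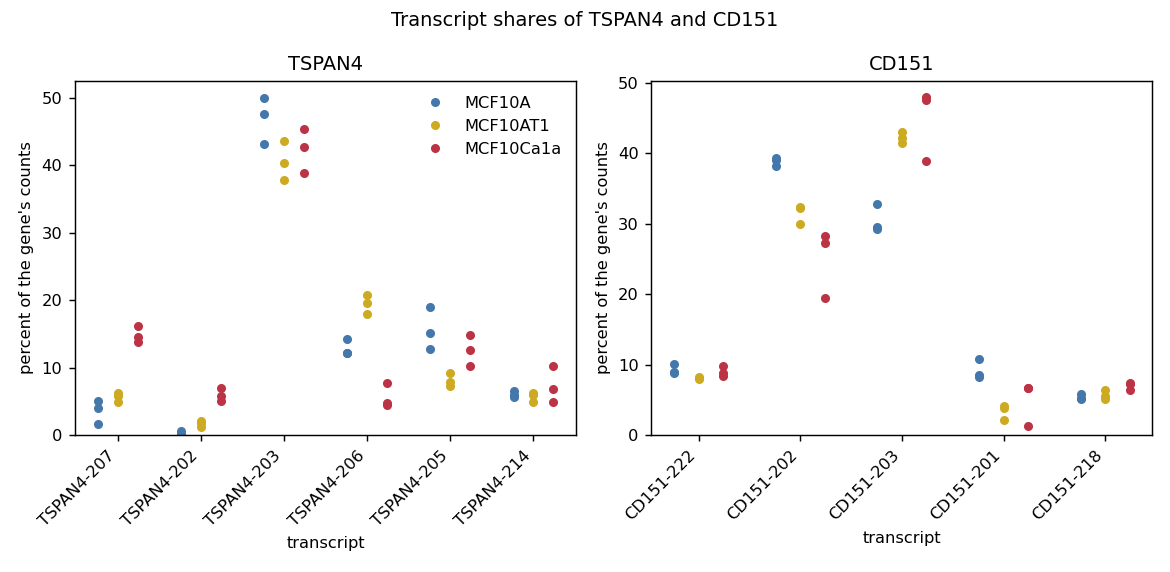
Percent of a gene's estimated counts (y axis) assigned to each transcript of TSPAN4 and CD151 that entered the test, with 1 point per library coloured by line. In MCF10Ca1a the points of TSPAN4-207 sit at 13.8% to 16.2% and those of TSPAN4-206 at 4.46% to 7.73%, outside the range of the other lines, and CD151-203 lies above and CD151-202 below the MCF10A points.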

How the data were processed

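Gene expression was measured by sequencing polyadenylated RNA of 3 libraries each of MCF10A, MCF10AT1 and MCF10Ca1a, made with a stranded kit, per the labels' protocols. The authors deposited estimated counts and TPM per gene and estimated counts per transcript. Salmon and hg38 are named in the submitters' processing notes without version or role, and the annotation is not given in the sources used here. The deposited TPM values were used as they stand.

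Estimated counts were rounded. Of 62666 genes, 17910 passed filterByExpr of edgeR, given the lines and its defaults of 10 counts and a total of 15. The main test was edgeR 4.0.16 (R 4.3.3), glmQLFit and glmQLFTest with TMM, with all 9 libraries in 1 fit and Benjamini-Hochberg adjustment over all genes tested at 0.05. A standard error is the log2 change divided by the square root of F. CPM use TMM-scaled totals. Depth was 32.9 to 69.5 M counts per library. Intervals (95%, exact) and limits at 0 counts cover counting error only: reads here carry no molecular identifier in the sources used, so they need not be independent molecules. Transcript use was tested with limma 3.58.1 on log2 of a transcript's count over the rest of its gene (pseudocount 0.5), with a Simes p per gene, for transcripts with at least 5% of the gene in a line and 10 counts on average. The gene minimum of 50 counts was applied to each compared line, a choice made after simulated data gave false calls for genes near 0 in a line. Both kinds of test were tested on simulated data. Positions are from GENCODE 29, promoters from RefSeq.

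The members, role groups, partner lists and marker lists were chosen with earlier results of these data known. Every tested member is named, untested members by their highest count, and of each partner list the called gene that rose most and fell most per comparison. A few other partners, such as ITGA3 and ITGB4, are named beside these. Transcripts are named for members called with a share change of at least 10 percentage points.

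The alternatives for genes comprised the Wald test of DESeq2 1.42.0 and its size factors within edgeR, unfiltered genes, the authors' scaled and length-scaled counts, a replicate block, fits to 2 lines, libraries thinned to the smallest, limma on TPM with pseudocounts 1 and 0.1, and leaving out any 1 library. For transcript use they were diffSpliceDGE, a pseudocount of 5, no filter on transcript share, the block, and leaving out any 1 library.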

Additional observations from a re-analysis of the deposited data

How the results depend on the processing

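Over 1438 alternative values of the member changes, 1313 kept their direction and side of the threshold, 69 kept the direction and lost the call, 17 kept it and gained one, and 39 changed sign. Counting the sign changes too, 78 lost a call and 19 gained one. Counts of called genes, members and partners stayed within 1.5 times in every alternative; the transcript counts did not. Transcript use in MCF10AT1 against MCF10A gave 0 members with diffSpliceDGE, with no filter on transcript share and with the replicate block (2, 3 and 3 at an unadjusted p under 0.05), 3 with a pseudocount of 5, and 0 to 3 with each library left out. In MCF10Ca1a against MCF10AT1 it gave 1 with diffSpliceDGE, 2 with the block and 2 to 4 with each library left out, and in MCF10Ca1a against MCF10A 2 with diffSpliceDGE and 3 to 6. The cause was not tested.

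Same-numbered libraries did not deviate together (correlations from -0.0597 to 0.0451), so the replicate numbers are not taken as pairs. With the replicate block, genes called were 10846, 13917 and 14397 in the 3 comparisons in the order above, members 14, 20 and 21, partners 30, 32 and 34, and members with changed transcript use 0, 2 and 5.

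Sign changes came mostly on TPM: with a pseudocount of 1, 0.1 and 1 without a filter, TSPAN6 was 0.13, 0.14 and 0.13, CD81 0.21, 0.22 and 0.21 and TSPAN4 0.25, 0.26 and 0.25 in MCF10Ca1a against MCF10AT1, TSPAN17 was -0.01, -0.01 and -0.01, TSPAN15 -0.02, -0.03 and -0.02, TSPAN14 -0.10, -0.10 and -0.10 and CD63 -0.00068 in each in MCF10AT1 against MCF10A, and TSPAN19 -0.02, -0.09 and -0.02 in MCF10Ca1a against MCF10A. On length-scaled and scaled counts TSPAN9 was 0.10 and 0.10 in MCF10AT1 against MCF10A and TSPAN19 -0.19 and -0.17 in MCF10Ca1a against MCF10A. TSPAN4 in MCF10Ca1a against MCF10AT1 was 0.04 with DESeq2 size factors, the Wald test and thinning, and 0.0064 with the 2 lines alone; TSPAN19 was -0.03 with thinning in MCF10Ca1a against MCF10A. With a library left out, CD81 ran from -0.15 to 0.02 (positive without MCF10A replicate 1), TSPAN15 from -0.004 to 0.15 (negative without MCF10A replicate 3) and TSPAN19 from -0.56 to 0.09 (positive without MCF10A replicate 1 and, at 0.03, MCF10AT1 replicate 2) in MCF10AT1 against MCF10A, TSPAN4 from -0.05 to 0.02 (positive without MCF10Ca1a replicate 3) in MCF10Ca1a against MCF10AT1, and TSPAN19 from -0.11 to 0.58 (negative without MCF10Ca1a replicate 1) in MCF10Ca1a against MCF10A. None of these 39 values had TSPAN2, TSPAN3, TSPAN5, TSPAN12, TSPAN13, TSPAN18 or CD151 among them. MCF10Ca1a, at 32.9 to 35.2 M counts per library, limits what can be seen near 0: 3 counts there are worth 0.0838 to 0.0892 CPM.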
